A study of Mus musculus with 10 samples.

Results

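The cell cycle genes described here are 50 listed genes sorted by the phase of the division cycle in which their products act. They comprise 14 regulators of G1 and of entry into S phase, 14 genes of DNA replication and 22 genes of mitosis. A probe set that maps to 1 gene symbol was found for 48 of them (13, 14 and 21 in the 3 classes), out of 22180 genes measured. Cyclin E2 (Ccne2) and cyclin B1 (Ccnb1) had no such probe set and were not analysed here.

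The genes were read on 10 Affymetrix arrays of CD4+ lymphocytes from the spleens of wild-type female BALB/c mice aged 10 to 14 weeks. Every culture was stimulated with anti-CD3 (4 µg/ml) and anti-CD28 (30 ng/ml), which engage the T cell receptor complex and its costimulatory receptor. Th0 cultures (n = 3) received nothing further. Th2 cultures (n = 3) also received IL-4 (100 ng/ml), and Th17 cultures (n = 4) received IL-6 (20 ng/ml), TGF-beta (5 ng/ml) and IL-23 (10 ng/ml). Anti-IFN-gamma (10 µg/ml) was added to Th2 and Th17 cultures but not to Th0, so the cytokines and this antibody cannot be told apart in a comparison with Th0. The medium was exchanged at 72 h, and the sources used here do not give the hour of harvest. The titles call the replicates biological, but the labels do not say whether they came from separate mice. The p-values thus reflect only how these samples varied, which may not be how mice vary.

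A resting T cell sits outside the division cycle until its receptor is engaged. D-type cyclins with CDK4 and CDK6, and then cyclin E with CDK2, drive it past G1 by inactivating the retinoblastoma protein and releasing E2F transcription factors, while p21, p27 and p18 hold these kinases back. E2F targets include the genes that license origins and make deoxynucleotides, whereas genes of mitosis are switched on later. Their timing is controlled through the DREAM and MuvB complexes, which bind a short promoter element called the CHR, often beside CCAAT boxes bound by NF-Y. The RNA level of such genes in a bulk culture depends on how many cells are dividing, and fewer cells of a kind and less RNA per cell cannot be told apart in these data.

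Promoters of 7 members are printed because the classes differ in the short words that their promoters hold. RefSeq promoters on GRCm38.p6, reaching from 250 bases before to 50 bases after a gene's start, were at hand for 41 of the 50 genes. Searched on both strands were an E2F word (TTTCCCGC or TTTGGCGC), the CHR (TTTGAA) and the CCAAT box (CCAAT). No match of 1 of these overlapped a match of another in a member. The stretches shown run from 200 bases before to 30 bases after the start, 5′ to 3′ along the gene's own strand, with every match in capitals, so that a match on the opposite strand appears as its reverse complement. The first 4 genes are of mitosis, the next 2 of replication, and the last is the G1 inhibitor p27.
Ccnb2: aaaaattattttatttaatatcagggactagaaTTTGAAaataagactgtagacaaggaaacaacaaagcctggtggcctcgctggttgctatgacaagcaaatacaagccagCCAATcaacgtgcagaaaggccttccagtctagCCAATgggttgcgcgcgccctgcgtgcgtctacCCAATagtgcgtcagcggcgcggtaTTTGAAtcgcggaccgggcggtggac
Cdk1: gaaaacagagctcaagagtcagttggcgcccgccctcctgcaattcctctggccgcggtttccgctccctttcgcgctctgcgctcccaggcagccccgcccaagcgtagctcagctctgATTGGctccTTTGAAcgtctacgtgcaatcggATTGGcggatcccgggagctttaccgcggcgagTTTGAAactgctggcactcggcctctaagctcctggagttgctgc
Top2a: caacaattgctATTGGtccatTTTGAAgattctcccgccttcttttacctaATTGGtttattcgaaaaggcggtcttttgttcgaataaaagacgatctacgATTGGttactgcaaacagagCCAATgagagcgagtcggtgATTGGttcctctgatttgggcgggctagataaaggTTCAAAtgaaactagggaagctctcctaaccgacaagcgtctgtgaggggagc
Cenpf: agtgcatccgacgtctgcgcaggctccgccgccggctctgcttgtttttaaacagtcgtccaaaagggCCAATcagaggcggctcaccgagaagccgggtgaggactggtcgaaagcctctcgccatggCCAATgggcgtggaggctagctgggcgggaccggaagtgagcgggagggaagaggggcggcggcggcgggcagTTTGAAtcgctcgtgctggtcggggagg
Cdc6: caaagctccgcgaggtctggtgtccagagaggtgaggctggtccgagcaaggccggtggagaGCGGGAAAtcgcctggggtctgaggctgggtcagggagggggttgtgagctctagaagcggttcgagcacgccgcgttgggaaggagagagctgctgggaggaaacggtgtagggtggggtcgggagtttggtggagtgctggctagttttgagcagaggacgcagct
Mcm5: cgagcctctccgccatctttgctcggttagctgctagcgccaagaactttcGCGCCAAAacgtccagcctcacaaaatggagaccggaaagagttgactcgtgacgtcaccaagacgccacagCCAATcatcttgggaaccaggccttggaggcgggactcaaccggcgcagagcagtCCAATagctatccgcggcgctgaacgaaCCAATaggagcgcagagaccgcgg
Cdkn1b: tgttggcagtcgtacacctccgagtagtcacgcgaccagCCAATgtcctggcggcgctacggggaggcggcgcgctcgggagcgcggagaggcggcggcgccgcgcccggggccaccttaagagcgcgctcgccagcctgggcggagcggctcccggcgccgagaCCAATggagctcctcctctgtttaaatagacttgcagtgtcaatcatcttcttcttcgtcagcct

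The promoter of Ccnb2, encoding cyclin B2, lies at chr9:70421525-70421754 on the minus strand and holds 3 CCAAT boxes followed by a CHR just after them, with another CHR farther upstream. Cdk1, the mitotic kinase that cyclin B2 activates, is printed from chr10:69352883-69353112 (minus strand), Top2a, the topoisomerase that untangles sister chromatids, from chr11:99024160-99024389 (minus strand), and Cenpf, a kinetochore protein, from chr1:189688057-189688286 (minus strand). Each of these holds a CHR close to the start. Cdc6, which loads the replicative helicase at origins, is printed from chr11:98907951-98908180 (plus strand), and Mcm5, a subunit of that helicase, from chr8:75109309-75109538 (plus strand), and each has an E2F word. Cdkn1b, at chr6:134920201-134920430 on the plus strand, has CCAAT boxes only.

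The CHR stood in the promoters of 13 of 18 mitotic genes (72.2%), 1 of 12 replication genes (8.33%) and 2 of 11 G1 genes (18.2%). Among all measured genes with a promoter it stood in 17.8%, and among all genes of the RefSeq table in 20.2%. In 12 of the 13 mitotic genes a CHR match lay within 50 bases of the start. Mitotic promoters without it were those of Ccnb1, Bub1, Cenpe, Nusap1 and Birc5. The E2F words stood in 6 of 12 replication promoters (50%), namely Mcm3, Mcm5, Mcm6, Mcm7, Cdc6 and Cdt1, in those of Cdk2 and E2f2 among the G1 genes (18.2%) and in 0 of 18 mitotic ones, against 2.37% of measured genes and 1.8% of the table. Among cell cycle genes outside the 50, E2F words stood in 7 of 34 replication genes (20.6%) and 7 of 53 mitotic genes (13.2%), so the classes differed less there, while the CHR stood in 7 of 34 (20.6%) and 34 of 53 (64.2%). CCAAT boxes were in 88.9% of mitotic, 75% of replication and 54.5% of G1 promoters, against 41.6% of measured genes and 41.1% of the table. Outside the 50 they were in 66% of mitotic, 47.1% of replication and 50% of G1 promoters, so replication genes there were near all genes. A match describes the letters of the window, not a bound site, and a missing match says nothing of a factor.

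**Figure D1:**
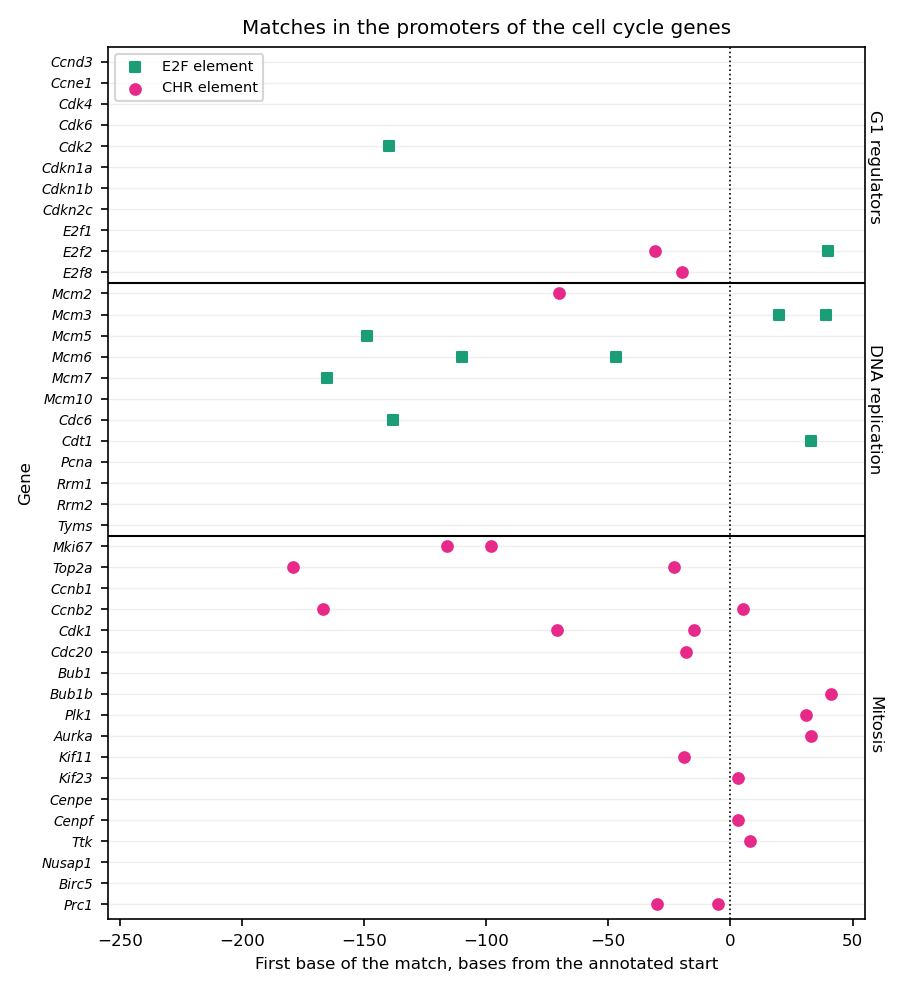
Position of each E2F word (squares) and CHR (circles) relative to the annotated start (x axis, bases) in the RefSeq promoters of 41 cell cycle genes (y axis, grouped by class). CHR matches lie within 50 bases of the start in 12 mitotic genes, and E2F words are in 6 replication genes and in none of the 18 mitotic ones. The 2 points of Prc1 are 1 match counted from 2 nearby starts.

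Array medians over all probe sets were alike, between 3.39 and 3.61 on the log2 scale, but the first principal component (35.8% of the variance) set Th2 replicate 2, Th2 replicate 3 and Th17 replicate 4 apart from the other 7 arrays. The number of arrays limits the precision throughout. Il17f, a cytokine that defines Th17 cells, lay between 9.55 and 10.94 in Th17 and at 6.66 or below elsewhere, and Gata3, the Th2 regulator, lay between 5.41 and 6.21 in Th17 against 7.14 to 8.15 in Th0 and Th2. Gata3 did not separate Th2 from Th0 (difference -0.23 ± 0.30, limma adjusted p = 0.927), and none of the 4 Th2 markers (Gata3, Il4, Il5 and Il13) passed in Th2 against Th0. Of these, Il5 was above the Th0 range on all 3 Th2 arrays (difference 1.296 ± 0.461, limma adjusted p = 0.767). Cd4 was between 7.09 and 8.76 on all arrays.

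Most of the cell cycle genes varied mainly between arrays of the same label, and most of all within Th2. This was not particular to them, as the median share of variance between the groups was 31.7% for members and 19.1% for all genes. Averaged over the class, the 21 mitotic genes stood at 6.98, 7.48 and 7.43 in Th0 replicates 1 to 3, at 7.51, 5.77 and 5.79 in Th2 replicates 1 to 3, and at 7.01, 5.99, 6.72 and 6.21 in Th17 replicates 1 to 4 (log2, the same replicate order being used for every gene). Th2 replicate 1 was thus as high as the highest Th0 array, while Th2 replicates 2 and 3 were the lowest of all 10, and Th17 replicates 2 and 4 came next. All 21 mitotic genes were below their own mean over the 10 arrays on each of those 4 arrays. The class means of the replication genes were 6.80, 7.32 and 7.52 in Th0, 7.50, 6.31 and 6.37 in Th2, and 7.13, 6.28, 6.76 and 6.37 in Th17. Those of the G1 genes were 6.10, 6.53 and 6.59 in Th0, 6.78, 5.73 and 5.67 in Th2, and 6.29, 6.18, 6.31 and 5.93 in Th17. In all 3 classes Th2 replicate 1 thus stood well above the other Th2 arrays, and Th0 replicate 1 was the lowest Th0 array.

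**Figure D2:**
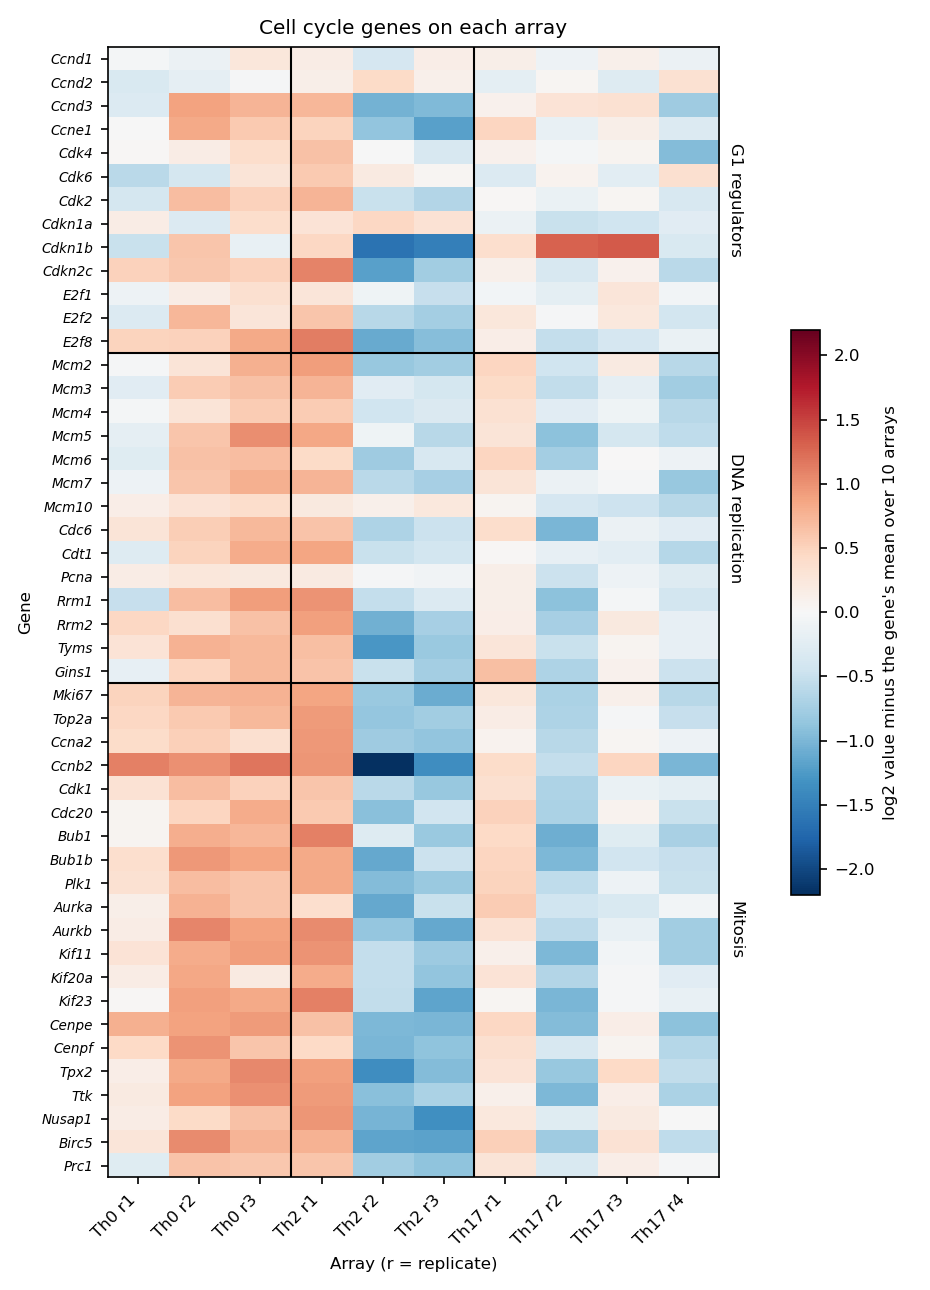
Log2 level of each of the 48 measured genes (rows, by class) on the 10 arrays (columns, by group and replicate), shown as the difference from the gene's own mean over the arrays (colour, log2 units). Th2 replicates 2 and 3 are below the mean for all 21 mitotic genes and Th2 replicate 1 is above it, while the rows of Ccnd2, Cdk6 and Cdkn1a do not share that order.

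Set against each other gene by gene, Th2 replicate 1 exceeded Th2 replicate 2 for 21 of 21 mitotic genes, with a median difference of 1.67 and all 21 past 2-fold. Of all genes, 5.58% were past 2-fold in that direction. Against Th2 replicate 3 the median was 1.69, with 20 of 21 past 2-fold (8.31% of all genes), whereas Th2 replicates 2 and 3 had a median difference of 0.02. In Th17, replicate 1 exceeded replicate 2 by a median of 1.02 and replicate 4 by 0.86, each for 21 of 21 genes. The range over the 3 Th2 arrays had a median of 1.83 for mitotic genes, 1.37 for replication genes and 1.36 for G1 genes, against 0.50 for all genes. It was above 1 for all 21 mitotic genes and for 15.4% of all genes. The share of a gene's variance that lay between the 3 groups had a median of 36% for mitotic, 23.9% for replication and 27% for G1 genes, and 19.1% over all genes.

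**Figure D3:**
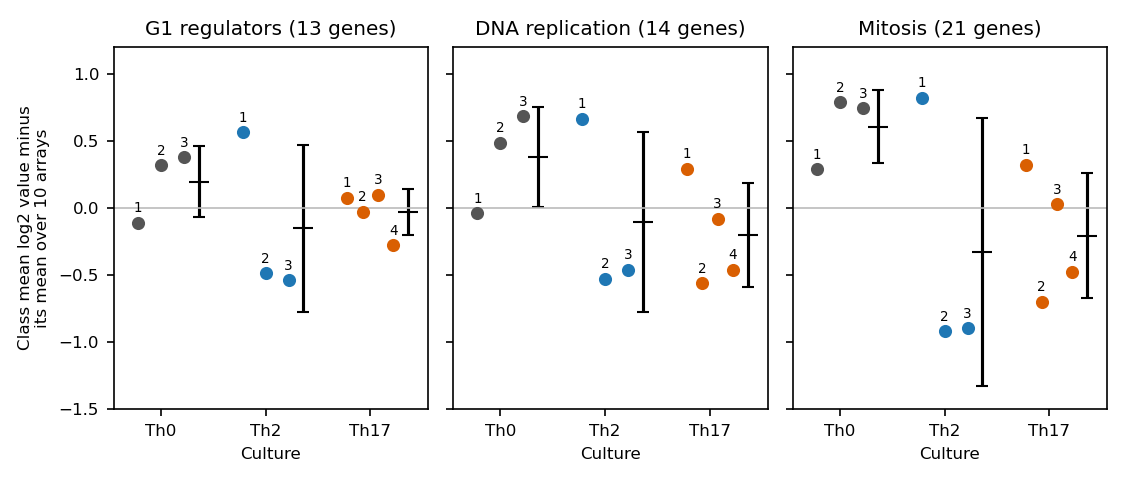
Mean of each class on every array (points), as the difference in log2 units from the class's mean over the 10 arrays (y axis), by group (x axis), with the replicate number above each point and the group mean and SD (bars) over 3 Th0, 3 Th2 and 4 Th17 arrays. Within Th2 1 array (replicate 1) lies high and the other 2 low in every class, and the mitotic class has the widest spread.

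Levels of cell-type and activation markers also differed between these arrays, and their part in the cell cycle levels was not tested. The mean of the 17 T cell activation genes was 8.004, 8.29 and 7.57 in Th0, 8.03, 8.90 and 8.64 in Th2, and 8.27, 7.75, 7.65 and 8.31 in Th17, so it was highest on Th2 replicates 2 and 3, where mitotic genes were lowest. Within the list, 11 of 17 genes were higher on both of these arrays than on Th2 replicate 1, 4 were lower on both and 2 were mixed. Cd69, an early activation antigen, was at 7.53 on Th2 replicate 1 and at 10.22 and 9.55 on the other Th2 arrays, while Tnfrsf18, a costimulatory receptor, was at 9.59 and then at 8.01 and 7.78. The mean of 10 basophil and mast cell markers was 6.76, 3.37 and 4.18 in Th0, 4.13, 3.23 and 3.35 in Th2, and 3.66, 5.70, 5.60 and 3.34 in Th17, so it was high on Th0 replicate 1 and Th17 replicates 2 and 3. B cell (10 genes), myeloid (11) and CD8 and NK (8) marker means lay between 3.44 and 4.39, 3.13 and 4.18, and 3.74 and 4.60. Single genes of these lists varied far more than the means. Among B cell genes, Ighm spanned 4.71 (Th17 replicate 4) to 10.41 (Th17 replicate 1), with Th2 replicates 2 and 3 next lowest (5.36 and 5.47). The myeloid gene S100a8 reached 7.16 in Th17 replicate 1 but did not exceed 3.74 in any other array. Cd8b1 peaked in Th0 replicate 2 (7.21), its next highest value being 5.96 (Th17 replicate 1). The mean of 10 T cell identity genes was lowest on Th2 replicates 2 and 3 and Th17 replicate 4, at 8.73, 8.65 and 8.71, and between 9.01 and 9.58 on the other 7 arrays. That of 3 erythroid and platelet genes was lowest on the same arrays, at 3.48, 3.71 and 3.25, and between 4.48 and 7.20 on the others. Mitotic genes were low on these 3 arrays and on Th17 replicate 2. Without the 3 arrays high in basophil and mast cell markers, the median difference of the mitotic genes from Th0 was -1.07 in Th2 and -0.91 in Th17, and no member passed.

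In Th2 against Th0, 45 of 48 members had a lower mean, and none passed an adjusted p of 0.05 (limma with Benjamini-Hochberg adjustment over 22180 genes), where 0% of all genes passed. The smallest adjusted p of a member was 0.767. At an unadjusted p under 0.05 there were 8 members, all lower (16.7%), against 6.34% of all genes in either direction. The median difference was -0.87 for mitotic, -0.48 for replication and -0.40 for G1 genes, and -0.01 over all genes. The arrays of Th2 and Th0 did not overlap for 3 members with lower values, the mitotic genes Ccnb2, Cenpe and Cenpf (3.94% of all genes), and for 1 with higher values, Ccnd2 (4.48% of all genes). Th2 replicate 1 weighed on these counts. Without it, 17 members passed as lower in Th2 (12 mitotic, 2 replication and 3 G1), against 1.94% of all genes, and 37 had an unadjusted p under 0.05. That last count was 1 and 2 without Th2 replicate 2 or 3, and 3 and 5 without Th0 replicate 2 or 3. The share of all genes at that unadjusted threshold was not counted in these alternatives, so the counts cannot be set against it. Without the 3 arrays that stood apart, which leaves replicate 1 as the only Th2 array and assumes that it varies like the other groups, the medians were 0.24, 0.31 and 0.38 in the same order of classes, 6 of 48 members had a lower mean and no member passed.

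In Th17 against Th0, 45 of 48 members again had a lower mean and none passed (0.104% of all genes did, smallest member adjusted p 0.554). There were 10 members at an unadjusted p under 0.05, all lower (20.8%), against 5.17% of all genes in either direction. That count was 1 without Th17 replicate 2 or Th0 replicate 3, and 2 without Th17 replicate 4 or Th0 replicate 2. It was 18 without Th17 replicate 1 and 27 without Th2 replicate 1. The latter array is outside this comparison and enters only through the spread that the groups share in the fit. The median range of the mitotic genes was 0.61 in Th0, 1.83 in Th2 and 1.05 in Th17. With only Th17 and Th0 fitted the count was 25, and no member passed. The share of all genes at that unadjusted threshold was not counted in these alternatives. Median differences were -0.84 for mitotic, -0.60 for replication and -0.38 for G1 genes, against -0.02 over all genes. Every Th17 array was below every Th0 array for 14 members (4.35% of all genes) and above for none (3.22%). The 14 were Mki67, Top2a, Ccna2, Ccnb2, Kif11, Cenpe, Cenpf and Ttk of the mitotic class, Mcm10, Pcna, Rrm2 and Tyms of the replication class, and Cdkn2c and E2f8 of the G1 class. This comparison shares its 3 Th0 arrays with that of Th2 against Th0. No member passed when any 1 of the 10 arrays was left out.

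In Th17 against Th2, 18 of 48 members had a lower mean and none passed (0.0766% of all genes did, smallest member adjusted p 0.383). At an unadjusted p under 0.05 stood 3 members (6.25%, against 6.25% of all genes): Cdkn1a and Mcm10, which were lower in Th17, and Cdkn1b, which was higher. The arrays of Th17 and Th2 did not overlap for Cdkn1a and Mcm10 (3.00% of all genes lower) and for no member with higher values in Th17 (2.60%). The class medians were 0.11, -0.08 and 0.08 for mitotic, replication and G1 genes. The number of members lower in Th17 depended on single arrays: it was 7 without Th2 replicate 1, 38 and 33 without Th2 replicate 2 or 3, 32 without Th17 replicate 1, and 47 without the 3 arrays that stood apart. Without Th2 replicate 1, 22 members had an unadjusted p under 0.05, but the share of all genes at that threshold was not counted there. Cdkn1b and Nusap1 then passed with higher values in Th17 (1.34% of all genes passed). With arrays weighted by their quality Cdkn1b alone did (1.49% of all genes).

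**Figure D4:**
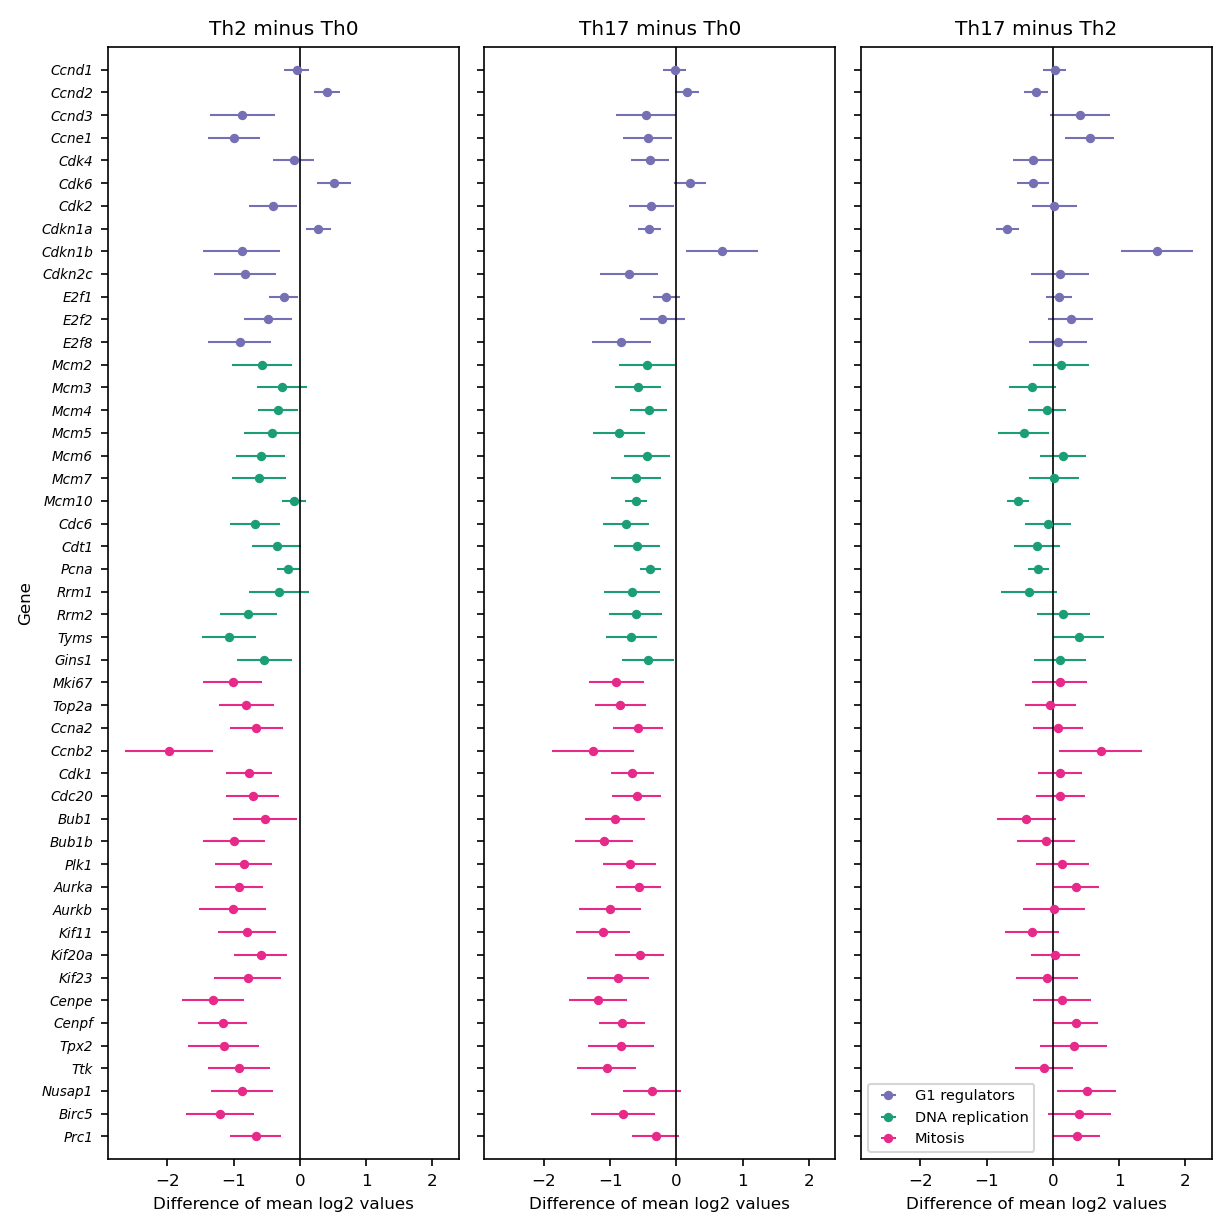
Difference of group means in log2 units (x axis), with its standard error from the limma fit, for each of the 48 genes (y axis, coloured by class) in the 3 comparisons. In both comparisons with Th0, 45 of 48 points lie left of 0, and in Th17 minus Th2 18 do, with Cdkn1b farthest right at 1.56.

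Cyclin B2, which activates Cdk1 for entry into mitosis, had the widest range of the mitotic genes. The Ccnb2 values were 7.95, 7.83 and 8.01 in Th0, 7.80, 4.59 and 5.47 in Th2 and 7.24, 6.30, 7.30 and 5.83 in Th17. The lowest values were on Th2 replicates 2 and 3, with Th17 replicate 4 next, and Th2 replicate 1 lay only just below the Th0 arrays. Its Th2 mean differed from Th0 by -1.98 ± 0.67 (SE, limma adjusted p = 0.767), the largest difference of any member and 3.94-fold on the linear scale, and its Th17 mean by -1.26 ± 0.63 (SE, limma adjusted p = 0.994). For Ccna2, the Th0 arrays gave 8.15, 8.27 and 8.11, the Th2 arrays 8.71, 6.97 and 6.89 and the Th17 arrays 7.84, 7.15, 7.79 and 7.64. Cyclin A2 (Ccna2), which acts in S phase and early mitosis, thus had its highest value on Th2 replicate 1 and its lowest on Th2 replicate 3. Cdk1 was at 8.21, 8.57 and 8.41 in Th0, at 8.50, 7.31 and 7.07 in Th2 and at 8.25, 7.23, 7.76 and 7.69 in Th17. Cdk1, the partner of both, spanned a narrower range, and its difference in Th2 against Th0 was -0.77 ± 0.35 (SE, limma adjusted p = 0.787).

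Mki67 and Top2a, which encode the proliferation antigen Ki-67 and a topoisomerase made from S phase to mitosis, were low on the same 4 arrays. The Mki67 values were 8.91, 9.18 and 9.19 in Th0, 9.29, 7.62 and 7.34 in Th2 and 8.68, 7.73, 8.54 and 7.81 in Th17. For Top2a, the Th0 arrays gave 9.06, 9.18 and 9.33, the Th2 arrays 9.54, 7.76 and 7.85 and the Th17 arrays 8.77, 7.93, 8.58 and 8.10. Both were highest on Th2 replicate 1, and in Th17 both were below every Th0 array. Mki67 differed from Th0 by -1.01 ± 0.44 (SE, limma adjusted p = 0.777) in Th2 and by -0.91 ± 0.41 (SE, limma adjusted p = 0.971) in Th17. For Top2a the differences were -0.81 ± 0.41 (SE, limma adjusted p = 0.803) and -0.84 ± 0.38 (SE, limma adjusted p = 0.967).

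Kinetochore and spindle genes were low on these arrays too. Cenpe was at 7.43, 7.52 and 7.58 in Th0, at 7.29, 5.66 and 5.64 in Th2 and at 7.10, 5.68, 6.80 and 5.74 in Th17. Cenpe, the motor that carries chromosomes along kinetochore fibres, lay between 5.64 and 5.74 on Th2 replicates 2 and 3 and Th17 replicates 2 and 4, and at 6.80 or above on the other 6 arrays. Its difference was -1.31 ± 0.47 (SE, limma adjusted p = 0.767) in Th2 and -1.18 ± 0.44 (SE, limma adjusted p = 0.879) in Th17, each against Th0. The Cenpf values were 6.11, 6.65 and 6.28 in Th0, 6.10, 4.66 and 4.79 in Th2 and 6.02, 5.32, 5.72 and 5.04 in Th17. In both Th2 and Th17 every array was below the lowest Th0 array, by as little as Th2 replicate 1 at 6.10 against 6.11, and the Th2 difference from Th0 was -1.16 ± 0.37 (SE, limma adjusted p = 0.767). For Nusap1, the Th0 arrays gave 6.36, 6.62 and 6.86, the Th2 arrays 7.17, 5.19 and 4.86 and the Th17 arrays 6.44, 5.94, 6.41 and 6.20. Nusap1, which bundles spindle microtubules, was lowest on Th2 replicates 2 and 3, and Th17 and Th2 differed by 0.51 ± 0.44 (SE, limma adjusted p = 0.943).

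Of the other 13 mitotic genes, all had lower means in Th2 and in Th17 than in Th0. Bub1b, a checkpoint kinase, differed from Th0 by -1.09 ± 0.44 (SE, limma adjusted p = 0.906) in Th17, the motor Kif11 by -1.11 ± 0.41 (SE, limma adjusted p = 0.879), and the checkpoint kinase Ttk by -1.05 ± 0.44 (SE, limma adjusted p = 0.928). Birc5, the survivin subunit of the chromosomal passenger complex, differed from Th0 by -1.21 ± 0.51 (SE, limma adjusted p = 0.774) in Th2 and its kinase Aurkb by -1.02 ± 0.50 (SE, limma adjusted p = 0.795). Tpx2, which activates Aurora A, differed by -1.15 ± 0.54 (SE, limma adjusted p = 0.793), and Aurka itself by -0.92 ± 0.36 (SE, limma adjusted p = 0.767). The smallest difference in Th17 was that of Prc1, which bundles midzone microtubules, at -0.31 ± 0.35 (SE, limma adjusted p = 0.999). In Th2 it was that of the checkpoint kinase Bub1, at -0.53 ± 0.48 (SE, limma adjusted p = 0.88). Plk1, Cdc20, Kif20a and Kif23 lay between, at -0.85, -0.71, -0.59 and -0.79 in Th2 against Th0.

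**Figure D5:**
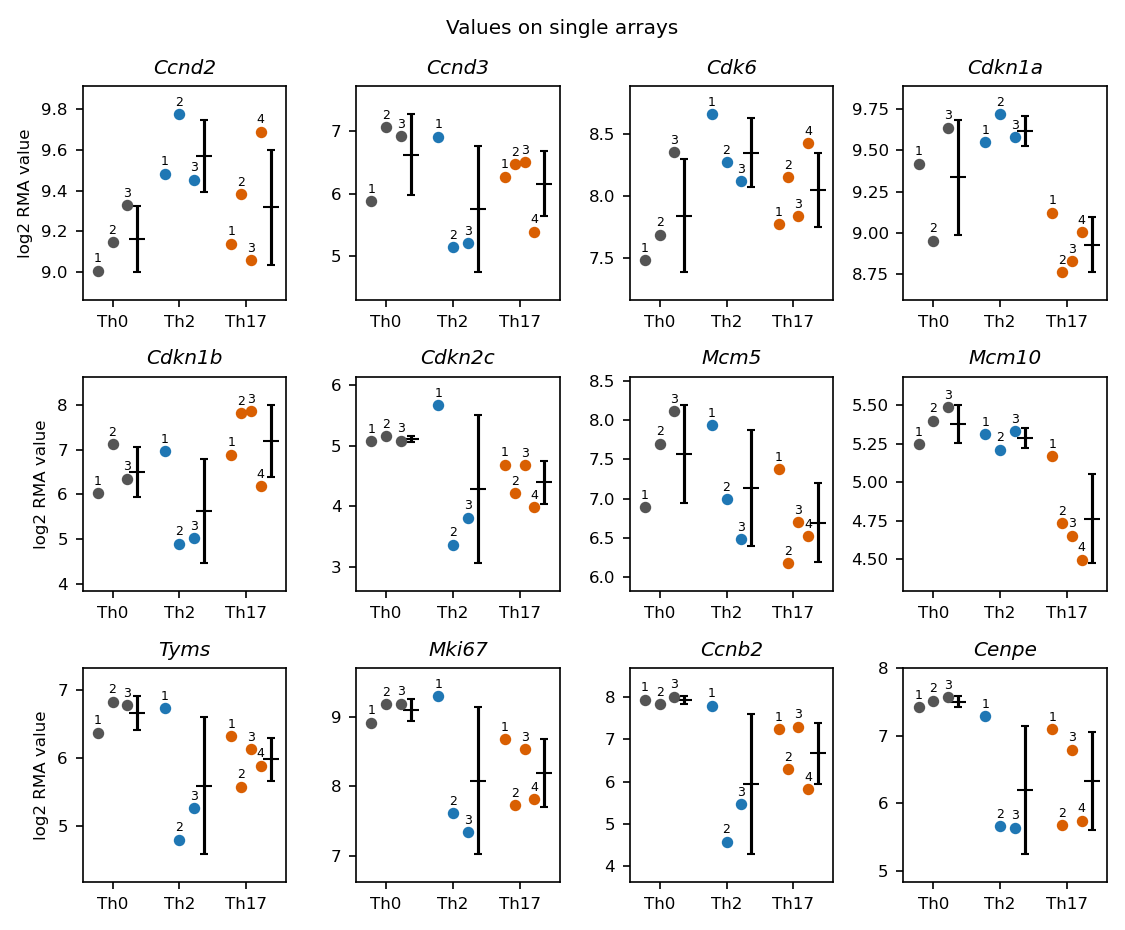
Log2 level (y axis) of 12 members on each array (points), by group (x axis: 3 Th0, 3 Th2 and 4 Th17 arrays), with the replicate number above each point and the group mean and SD beside them. Ccnb2 and Cenpe are lowest on Th2 replicates 2 and 3 (Ccnb2) or on these and Th17 replicates 2 and 4 (Cenpe), Ccnd2 and Cdk6 are not, and the 4 Th17 values of Mcm10 lie below the other 6.

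In the replication class, all 14 genes had lower means in both groups than in Th0. The helicase loaders are represented by Cdc6 and Cdt1, and the subunits of the helicase by Mcm2 to Mcm7. Mcm5 was at 6.89, 7.70 and 8.11 in Th0, at 7.94, 6.99 and 6.48 in Th2 and at 7.37, 6.18, 6.70 and 6.53 in Th17. The highest value was on Th0 replicate 3, and Th17 replicate 2 held the lowest. Its Th17 difference from Th0 was -0.87 ± 0.39 (SE, limma adjusted p = 0.962). The Cdc6 values were 6.001, 6.26 and 6.43 in Th0, 6.34, 5.05 and 5.26 in Th2 and 6.11, 4.72, 5.59 and 5.48 in Th17. Cdc6 was lowest on Th17 replicate 2, and its difference was -0.76 ± 0.35 (SE, limma adjusted p = 0.971) in Th17 and -0.68 ± 0.37 (SE, limma adjusted p = 0.811) in Th2. The other MCM subunits had Th17 differences from Th0 between -0.60 (Mcm7) and -0.42 (Mcm4), and Cdt1, the other loader, of -0.60.

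Mcm10, which helps to open the assembled helicase, had another order of arrays. For Mcm10, the Th0 arrays gave 5.24, 5.40 and 5.49, the Th2 arrays 5.31, 5.21 and 5.33 and the Th17 arrays 5.17, 4.73, 4.65 and 4.50. Th2 replicates 2 and 3, the lowest arrays for mitotic genes, were within the Th0 range or only just below it, at 5.21 and 5.33, while all 4 Th17 arrays were below all 6 others. Th17 differed from Th0 by -0.61 ± 0.17 (SE, limma adjusted p = 0.554) and from Th2 by -0.52 ± 0.17 (SE, limma adjusted p = 0.602), and Th2 from Th0 by -0.09 ± 0.18 (SE, limma adjusted p = 0.957). Of its variance, 73.2% lay between the groups.

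Genes of nucleotide supply followed. Tyms was at 6.38, 6.83 and 6.78 in Th0, at 6.73, 4.80 and 5.26 in Th2 and at 6.33, 5.58, 6.13 and 5.89 in Th17. Thymidylate synthase (Tyms) was thus lowest on Th2 replicates 2 and 3, with a Th2 difference from Th0 of -1.07 ± 0.41 (SE, limma adjusted p = 0.767). The Rrm2 values were 8.19, 8.08 and 8.38 in Th0, 8.64, 6.68 and 7.01 in Th2 and 7.88, 7.003, 7.95 and 7.57 in Th17. Rrm2, the regulated subunit of ribonucleotide reductase, was highest on Th2 replicate 1 and lowest on Th2 replicate 2, with a Th2 difference of -0.78 ± 0.43 (SE, limma adjusted p = 0.814). It was the only member with another probe set, which gave -0.94 in Th2 and -0.79 in Th17 against -0.78 and -0.62 for the one used. For Pcna, the Th0 arrays gave 9.88, 9.97 and 9.94, the Th2 arrays 9.92, 9.70 and 9.65 and the Th17 arrays 9.85, 9.26, 9.60 and 9.45. The clamp PCNA had the narrowest range of the class, and its Th17 arrays were all below the Th0 arrays, differing by -0.39 ± 0.16 (SE, limma adjusted p = 0.913). Rrm1 and Gins1 differed from Th0 by -0.67 and -0.43 in Th17.

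The G1 regulators did not share 1 order of arrays. Ccnd1 was at 2.93, 2.84 and 3.24 in Th0, at 3.14, 2.60 and 3.12 in Th2 and at 3.10, 2.87, 3.08 and 2.86 in Th17. Cyclin D1 (Ccnd1) was below the median of all probe sets of each array throughout. The Ccnd2 values were 9.01, 9.15 and 9.33 in Th0, 9.48, 9.78 and 9.45 in Th2 and 9.14, 9.38, 9.06 and 9.69 in Th17. Cyclin D2 (Ccnd2), which partners CDK4 and CDK6, was above the Th0 range on all Th2 arrays, including replicates 2 and 3 on which the mitotic genes were low, and differed from Th0 by 0.41 ± 0.19 (SE, limma adjusted p = 0.793). For Ccnd3, the Th0 arrays gave 5.88, 7.07 and 6.92, the Th2 arrays 6.91, 5.14 and 5.20 and the Th17 arrays 6.27, 6.47, 6.51 and 5.39. Cyclin D3 (Ccnd3) was instead low on Th2 replicates 2 and 3 and on Th17 replicate 4, with a Th2 difference from Th0 of -0.87 ± 0.49 (SE, limma adjusted p = 0.815). Ccne1 was at 5.86, 6.70 and 6.45 in Th0, at 6.37, 5.001 and 4.68 in Th2 and at 6.34, 5.71, 6.002 and 5.58 in Th17. Cyclin E1 (Ccne1), which acts with CDK2, was lowest on Th2 replicates 2 and 3, and its Th2 difference was -0.99 ± 0.39 (SE, limma adjusted p = 0.767).

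The G1 kinases Cdk4, Cdk6 and Cdk2 each had their highest value on Th2 replicate 1. The Cdk6 values were 7.48, 7.69 and 8.35 in Th0, 8.66, 8.27 and 8.12 in Th2 and 7.77, 8.15, 7.84 and 8.43 in Th17. Its Th2 difference from Th0 was 0.51 ± 0.26 (SE, limma adjusted p = 0.803), the widest in the positive direction of any member in this comparison. For Cdk4, the Th0 arrays gave 7.89, 8.03 and 8.25, the Th2 arrays 8.52, 7.86 and 7.51 and the Th17 arrays 7.96, 7.83, 7.93 and 6.91. Cdk4 was lowest on Th17 replicate 4, and its Th17 difference was -0.40 ± 0.29 (SE, limma adjusted p = 0.999). Cdk2 lay between 5.48 and 6.88 over the 10 arrays.

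Of the inhibitors, Cdkn1a and Cdkn1b each had their own order of arrays, while Cdkn2c was lowest on the arrays where mitotic genes were low. Cdkn1a was at 9.42, 8.95 and 9.64 in Th0, at 9.55, 9.72 and 9.58 in Th2 and at 9.12, 8.76, 8.83 and 9.004 in Th17. p21 (Cdkn1a), an inhibitor induced by p53, was lower on all 4 Th17 arrays than on any Th2 array, and Th17 differed from Th2 by -0.69 ± 0.18 (SE, limma adjusted p = 0.383), with 70.9% of its variance between the groups. The Cdkn1b values were 6.02, 7.12 and 6.36 in Th0, 6.96, 4.90 and 5.02 in Th2 and 6.89, 7.81, 7.87 and 6.19 in Th17. p27 (Cdkn1b), which keeps resting cells out of the cycle, was highest on Th17 replicates 2 and 3 and lowest on Th2 replicates 2 and 3, and the groups Th17 and Th2 overlapped at Th2 replicate 1. Its Th17 difference from Th2 was 1.56 ± 0.54 (SE, limma adjusted p = 0.65), the largest of any member in that comparison, and its Th17 difference from Th0 was 0.69 ± 0.54 (SE, limma adjusted p = 0.999). For Cdkn2c, the Th0 arrays gave 5.07, 5.16 and 5.08, the Th2 arrays 5.66, 3.37 and 3.81 and the Th17 arrays 4.69, 4.22, 4.67 and 3.99. p18 (Cdkn2c), an inhibitor of CDK4 and CDK6, was low on the same Th2 arrays, with a Th2 difference from Th0 of -0.82 ± 0.47 (SE, limma adjusted p = 0.815).

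The E2F genes differed in range. E2f1 was at 4.13, 4.41 and 4.60 in Th0, at 4.51, 4.15 and 3.75 in Th2 and at 4.18, 4.04, 4.51 and 4.18 in Th17. E2F1, an activator of S phase genes, had its lowest value on Th2 replicate 3. The E2f8 values were 6.15, 6.17 and 6.50 in Th0, 6.80, 4.56 and 4.73 in Th2 and 5.82, 5.14, 5.30 and 5.52 in Th17. E2F8, a repressor of E2F targets that is itself made in S phase, had its highest value on Th2 replicate 1 and its lowest on Th2 replicate 2, with differences of -0.91 ± 0.47 (SE, limma adjusted p = 0.803) in Th2 and -0.83 ± 0.44 (SE, limma adjusted p = 0.999) in Th17 against Th0. E2f2 ranged from 3.30 to 4.78.

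Further cell cycle genes, listed by the same phases but not among the 50, were fitted in the same model, and none passed. Of 63 other mitotic genes, 60 had lower means in Th2 and 63 in Th17 than in Th0, with medians of -0.63 and -0.66; 11 and 22 of these had an unadjusted p under 0.05, all lower (6.34% and 5.17% of all genes). Spc24, a kinetochore subunit, had the widest Th17 difference (-1.63 ± 0.56, limma adjusted p = 0.788) and Kif18b, a mitotic motor, the widest Th2 one (-1.28 ± 0.46, limma adjusted p = 0.767). Of 41 other replication genes, 37 and 39 had lower means, with medians of -0.44 and -0.50. For these, Gmnn (geminin, the inhibitor of Cdt1) differed by -1.38 ± 0.50 in Th2 and Pole (the leading strand polymerase) by -1.09 ± 0.33 in Th17 against Th0 (limma adjusted p = 0.767 and 0.66). The 25 other G1 genes had medians of -0.22 and -0.19. The 15 genes associated with quiescence had medians of 0.16 and 0.07, and their widest differences from Th0 went in opposite directions. Txnip, an inhibitor of glucose uptake, differed by -1.68 ± 0.94 in Th2 (limma adjusted p = 0.814), and Btg1, an antiproliferative gene, by 1.16 ± 0.29 in Th17 (limma adjusted p = 0.433). Foxo1, a transcription factor of resting T cells with the smallest adjusted p of those named, differed by 0.79 ± 0.14 in Th17 (limma adjusted p = 0.0838).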

How the data were processed

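RNA of 10 cultures was hybridised to Affymetrix arrays, 1 per sample. The values the authors deposited are log2 intensities per probe set, normalised by RMA in Affymetrix Expression Console 1.3.0.187, per the submitters' processing notes; the sources used here do not give the genome build or probe annotation. Of 41345 probe sets, 23521 mapped to 1 symbol, 1814 to several and 16010 were not in the probe table. A gene with several probe sets was represented by the one with the highest mean, giving 22180 genes. No filter on low values was applied.

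The 3 groups were fitted in 1 model with limma 3.58.1 in R 4.3.3 (moderated statistics, 7 residual degrees of freedom), and p-values were adjusted by Benjamini and Hochberg over all genes, with a call at 0.05. The procedure was tested on simulated data. Differences are of mean log2 values, with the SE of the fit. No 2 arrays held identical values. Values on every array are given for called members, for the 2 with the largest difference per class and comparison, for the widest and narrowest range per class, and for a fixed set of known cell cycle genes. Cdc6, Mcm10, Nusap1, Tyms, Ccnb2 and Cenpe entered by their values. Cdk4, Ccna2, Cenpf and the markers Cd69, Tnfrsf18, Il5, Ighm, S100a8 and Cd8b1 were added after their values were seen. All members, lists and rules were chosen with earlier results of these data known. Promoters are those of RefSeq on GRCm38.p6. Alternatives left out single arrays, 2 sets of 3 arrays, or genes with a mean under 5 (43 members remained), and changed array weights, scaling between arrays, probe set choice, moderation, the groups fitted and the replicate block.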

Additional observations from a re-analysis of the deposited data

Results flagged for a closer look

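Cdk4, the kinase that D-type cyclins activate, stood at 6.91 on Th17 replicate 4, against 7.83 for the next Th17 array and 7.96 for the highest. The gap of this array to its nearest neighbour was 0.88 of the range of the group, above Dixon's 95% critical value for 4 samples. Of 51 values checked, 1 was picked out in this way, and chance picks out about 1 in 20.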

How the results depend on the processing

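The limits are those of 3 or 4 arrays per group, of which 3 stood apart. Over 22 alternatives, 190 of 198 class medians moved by less than the pooled SD of the class mean within groups. That SD is wide (0.38 for G1, 0.48 for replication and 0.63 for mitotic genes), and close in size to several of the medians. Some alternatives could not move a median at all, such as another moderation or leaving out an array of the group not compared. Of the counts of called members, 63 of 66 were the same as reported, but the reported counts were 0 and could not fall. Neither share is thus a measure of stability. With single arrays left out, called members numbered 0 to 17 in Th2 against Th0, 0 in Th17 against Th0 and 0 to 2 in Th17 against Th2. The medians ranged from -0.84 to -0.14 (G1), -0.87 to -0.23 (replication) and -1.44 to -0.59 (mitotic) in Th2 against Th0. They ranged from -0.48 to -0.15, -0.79 to -0.41 and -0.997 to -0.64 in Th17 against Th0, and from -0.15 to 0.46, -0.27 to 0.27 and -0.18 to 0.68 in Th17 against Th2. With arrays weighted by quality, 1 member was called in Th17 against Th2.

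Without the 3 arrays apart on the first component, which leaves 1 Th2 array, the medians were 0.38, 0.31 and 0.24 in Th2 against Th0 and -0.49, -0.78 and -0.93 in Th17 against Th2. The sign turned for 39 of 48 members in Th2 against Th0 and for 29 in Th17 against Th2. Among the differences recomputed one by one, those that turned in Th2 against Th0 were Ccnd3 (0.29), Ccne1 (0.026), Cdkn1b (0.46), Cdkn2c (0.56), E2f8 (0.52), Mcm5 (0.37), Tyms (0.071), Rrm2 (0.42), Cdc6 (0.11), Mki67 (0.20), Top2a (0.35), Cdk1 (0.10), Kif11 (0.30), Aurkb (0.33), Birc5 (0.085), Bub1 (0.57), Cdc20 (0.12), Kif20a (0.42), Kif23 (0.52), Plk1 (0.29) and Tpx2 (0.22), and in Th17 against Th2 Ccnb2 (-0.85) and Nusap1 (-0.91). Cdkn1b in Th17 against Th0 was -0.20 without the 3 arrays high in basophil markers, and the cause was not tested.

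With the replicate number of the titles as a block, 0 members were called in each comparison, while 11, 5 and 3 had an unadjusted p under 0.05. Deviations of same-numbered arrays correlated from -0.31 to 0.30, and 1 of 10 arrays correlated best with its own number, so these numbers were not taken as pairs. The descriptions give Th2 replicate 3 the number 4. By those numbers the correlations ran from -0.29 to 0.49, the highest being that of Th2 replicate 3 with Th17 replicate 4, and 3 of 10 arrays correlated best with their own number. With these numbers as a replicate block, 0 members were called, and 4, 5 and 3 had an unadjusted p under 0.05. The medians in Th2 against Th0 were then -0.17, -0.18 and -0.64. For neither block was the share of all genes at that unadjusted threshold counted. All genes called ranged over the alternatives from 0 to 431, 2 to 60 and 3 to 330 in the 3 comparisons, from reported counts of 0, 23 and 17.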
